A study of Mus musculus with 474 samples.

Results

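Transcript levels of 9 genes of the tricarboxylic acid cycle (Cs, Idh3a, Idh3b, Idh3g, Idh2, Ogdh, Suclg1, Fh1 and Mdh2) were described in skeletal muscle of Diversity Outbred mice, an outbred stock made from inbred founder strains in which each animal has its own mix of founder genomes. The genes were chosen by name, as enzymes of the cycle, out of 20612 genes in the tables, and all 9 passed the filter on low counts with 18823 genes in total. RNA-seq was done on 1 library for each animal, and the study's methods name the muscle as gastrocnemius. The titles carry the sex and a number (17, 18, 19, 21 or 23) that was read here as the outbred generation, an assumption, since the study's methods name 18, 19 and 21 but neither 17 nor 23. In that order the 5 groups of females held 48, 45, 49, 46 and 47 animals and the 5 groups of males 46, 48, 50, 47 and 48, and a mean ± SD of a sex is over all its animals. All animals had the same high-fat, high-sugar diet and, per the methods, the same age at harvest, so no group on another diet was compared. Library totals were 35.9 to 166 M counts, and the skeletal muscle markers together reached 103554 CPM (counts relative to the TMM-scaled library total) in the lowest library, so the tissue label was borne out. In 5 libraries the sex-linked transcripts went against the label (among them DO048 and DO308, whose columns stand in each other's place in the deposited order and were taken by name), and no member gained or lost a call between the sexes without them.

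The tricarboxylic acid cycle runs in the mitochondrial matrix, where acetyl groups from carbohydrate, fat and amino acids are oxidised and the electrons are passed to the respiratory chain as NADH and reduced flavin. Skeletal muscle is a major site of this oxidation, and oxidative fibres hold more mitochondria than glycolytic ones. Citrate synthase (Cs) joins acetyl-CoA to oxaloacetate. Isocitrate is then oxidised by the NAD-dependent isocitrate dehydrogenase, which is built from the catalytic subunit Idh3a and the subunits Idh3b and Idh3g, while Idh2 encodes the separate NADP-dependent mitochondrial enzyme. Ogdh is the first component of the alpha-ketoglutarate dehydrogenase complex, Suclg1 the alpha subunit of succinyl-CoA ligase, Fh1 is fumarase and Mdh2 is the mitochondrial malate dehydrogenase that returns oxaloacetate.

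The 9 genes lie on 9 different chromosomes (GRCm38), so no member is a near neighbour of another. Cs (ENSMUSG00000005683) is at chr10:128337734-128362479 on the plus strand. Idh3a (ENSMUSG00000032279) is at chr9:54586334-54604661 on the plus strand, Idh3b (ENSMUSG00000027406) at chr2:130279309-130284547 on the minus strand and the X-linked Idh3g (ENSMUSG00000002010) at chrX:73778963-73786897 on the minus strand. Idh2 (ENSMUSG00000030541) is at chr7:80094846-80115392 on the minus strand and Ogdh (ENSMUSG00000020456) at chr11:6291633-6356642 on the plus strand. Suclg1 (ENSMUSG00000052738) is at chr6:73248382-73276911 on the plus strand, Fh1 (ENSMUSG00000026526) at chr1:175600374-175625635 on the minus strand and Mdh2 (ENSMUSG00000019179) at chr5:135778480-135790398 on the plus strand. The span of Fh1, introns included, shares 5255 bases with that of Kmo on the other strand, and the span of Idh2 shares 1831 bases on the same strand with Gm45203. Use of strand in the counting is not given in the sources used here, so reads of these overlaps cannot be assigned with certainty.

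Because the members vary together between animals (below), start sites were searched on both strands for 5 short motifs. Windows from RefSeq (GRCm38.p6) held 250 bases before and 50 after each start site, and only the 250 bases before it were searched. A window was found for 8 of the 9 members, with 6 windows for Ogdh. CCAAT, the box bound by NF-Y, was present before Cs, Fh1, Idh3b, Idh2 and Ogdh, and in 33.8% of 32851 windows (37.5% of genes counted over all their windows). TGACGTCA, the cAMP response element, was present before Mdh2 and Ogdh (1.55% of all windows, 1.77% of genes). CCGGAAG, an ETS-type motif, was present before Idh3g (6.91% and 7.83%), and GCGCANGC, the NRF1-type motif, before 1 member, Ogdh (8.3% and 9.38%), in 3 later windows and not in the stretch shown. AAGGTCA, the core sequence of oestrogen-related receptor sites, was found before 0 of the 8 members and in 4.08% of all windows (4.7% of genes). A match is a description of letters and not a binding site. The 250 bases before the start of Cs, Fh1 and Ogdh (its first start site) are shown 5′ to 3′ because they overlap no annotated exon and hold at least 1 match, with the matches in capitals.
Cs, chr10:128337477-128337726, plus strand: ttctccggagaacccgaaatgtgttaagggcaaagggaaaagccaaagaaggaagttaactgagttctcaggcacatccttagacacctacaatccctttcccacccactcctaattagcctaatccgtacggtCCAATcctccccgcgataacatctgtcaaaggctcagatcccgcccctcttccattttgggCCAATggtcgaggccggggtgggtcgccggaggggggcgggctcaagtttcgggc
Fh1, chr1:175625636-175625885, minus strand: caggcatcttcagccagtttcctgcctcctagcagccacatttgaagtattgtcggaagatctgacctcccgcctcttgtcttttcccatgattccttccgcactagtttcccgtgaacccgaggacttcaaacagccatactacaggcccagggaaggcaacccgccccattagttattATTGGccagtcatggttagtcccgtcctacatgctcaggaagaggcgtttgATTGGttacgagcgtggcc
Ogdh, chr11:6291347-6291596, plus strand: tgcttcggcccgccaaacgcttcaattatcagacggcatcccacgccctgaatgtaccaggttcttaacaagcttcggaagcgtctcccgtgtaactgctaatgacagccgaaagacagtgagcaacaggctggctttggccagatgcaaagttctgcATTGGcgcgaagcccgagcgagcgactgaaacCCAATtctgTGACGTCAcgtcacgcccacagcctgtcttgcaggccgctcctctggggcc

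Mdh2 had the highest level of the 9 genes once the length of the transcript was taken into account, and Fh1 the lowest. Levels between genes are given as CPM per kilobase of the principal transcript. Mdh2 reached 369.6 ± 41.8 (SD over all animals) and exceeded Ogdh in all animals (100% of them). Ogdh at 253.6 ± 21.5 and Cs at 246.01 ± 18.8 were close, with Ogdh the higher in 66.5% of animals. The 3 subunits of the NAD-dependent isocitrate dehydrogenase followed at 192.6 ± 18.5 for Idh3a, 175.1 ± 21.1 for Idh3b and 160.8 ± 15.6 for Idh3g. Idh2 at 127.3 ± 28.7 overlapped Suclg1 at 116.6 ± 10.5, being higher in 65.8% of animals, and Suclg1 exceeded Fh1 (62.1 ± 6.70) in 100% of them. This order depends on the length used: per kilobase of all annotated exons Ogdh came before Mdh2, Idh2 before Idh3b and Idh3g, and Fh1 before Suclg1.

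**Figure D1:**
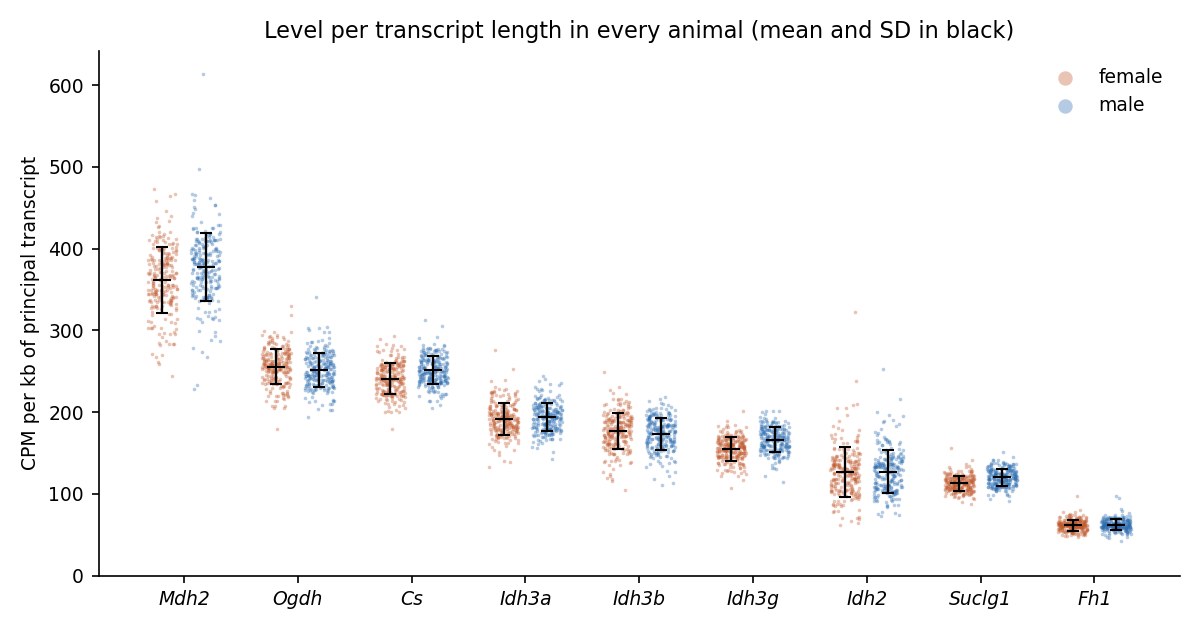
CPM per kilobase of principal transcript (vertical axis, linear from 0) for each gene, 1 point per animal, females in orange and males in blue. Black marks give the mean and SD; Mdh2 lies above all other genes, Fh1 at the bottom, and Idh2 spreads most relative to its mean.

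The levels varied little between animals by the coefficient of variation, least for Cs and most for Idh2. The coefficient of variation over all animals was 7.63% for Cs, 8.47% for Ogdh, 8.996% for Suclg1, 9.60% for Idh3a, 9.72% for Idh3g, 10.8% for Fh1, 11.3% for Mdh2 and 12.0% for Idh3b, against a median of 27.7% over all genes tested. Only 0.818% of genes had a lower value than Cs. Idh2 had 22.5% and ranged from 109.1 to 562.6 CPM, a 5.16-fold span, whereas Cs spanned 1.75-fold, from 524.6 to 916.7 CPM. The lowest count of any member in any library was 5122, at which counting error is 1.40% if counts are independent, less than each of these spreads. Both mates of a pair were treated as single reads, so the counting error may be larger than this. On the deposited scores after removal of sex and generation, 81.0% of genes tested had a lower SD than Idh2, 27.6% than Idh3b and 1.17% than Cs.

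Males had higher levels of 4 of the 9 genes, and all 4 differences were small. The 4 were Idh3g, Suclg1, Mdh2 and Cs. By the quasi-likelihood test of edgeR with generation as covariate, adjusted over all 18823 genes by the Benjamini-Hochberg method, 55.0% of all genes were called between the sexes, made up of 24.4% of all genes that were higher in males and 30.6% that were lower. A share of 4 in 9 is no more than the 55.0% called in either direction, but more than the 24.4% called higher in males. No member was called lower in males. Whether these shares differ from those of genes in general was not tested. The median difference over the 9 genes was 0.02 on the log2 scale, and over all genes tested -0.01.

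Idh3g, the X-linked subunit, showed the largest of these differences. Its level in females had a lowest value of 143.3, a median of 207.9 and a highest value of 268.8 CPM, and in males 153.2, 221.7 and 268.6 CPM. The groups overlapped over nearly their whole range, although 75.3% of males lay above the female median. The mean rose from 206.4 ± 19.01 CPM (SD) in females to 221.5 ± 19.8 CPM (SD) in males, a log2 difference of 0.10 (SE 0.012, edgeR adjusted p = 9.06e-15). It was higher in males in 5 of 5 generations and passed the threshold in each, with log2 differences of 0.08 to 0.16 (group means from 200.3 to 210.2 CPM in females and from 219.1 to 223.8 CPM in males).

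Suclg1 ran from 134.0 over a median of 171.5 to 237.8 CPM in females and from 138.0 over 182.4 to 229.8 CPM in males. The ranges overlapped, and the log2 difference was 0.09 (SE 0.011, edgeR adjusted p = 1.68e-13), higher in males in 5 of 5 generations. Cs, often used as a measure of mitochondrial content, ran from 524.6 over 703.6 to 858.3 CPM in females and from 598.6 over 731.4 to 916.7 CPM in males. Its log2 difference was 0.06 (SE 0.0098, edgeR adjusted p = 1.29e-08), and it was higher in males in 5 of 5 generations and called in 3 of them. With total counts in place of TMM scaling the difference of Cs was 0.03 (adjusted p = 0.0055) and that of Suclg1 0.06 (adjusted p = 5.78e-07). Mdh2 ran from 355.01 over 528.4 to 689.1 CPM in females and from 331.9 over 554.7 to 893.4 CPM in males. Its log2 difference was 0.06 (SE 0.015, edgeR adjusted p = 0.000114), with the males higher in 5 of 5 generations and the call made in 1 of them, but with total counts it was 0.03 and lost the call (adjusted p = 0.0654).

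The other 5 genes were not called between the sexes. Idh3a had a log2 difference of 0.02 (95% interval -0.01 to 0.04) and Fh1 of 0.01 (-0.01 to 0.04). Idh3b had -0.03 (-0.06 to 0.01) and Ogdh -0.02 (-0.04 to -0.00083), with edgeR adjusted p of 0.180 and 0.0734. Ogdh was lower in males in 5 of 5 generations and passed the threshold under 4 of the alternatives over all animals, with DESeq2 (adjusted p = 0.0430), limma on the deposited scores (0.0476), a stricter filter (0.0357) and total counts for scaling (2.01e-05, log2 difference -0.05). Total counts moved the median of all genes from -0.01 to -0.05, a shift of the same direction over genes in general. With scores for slow fibres and for white and brown adipocytes as covariates, the difference of Ogdh was -0.0025 (adjusted p = 0.893). With total counts for scaling Idh3b was called lower in males as well (log2 difference -0.06, edgeR adjusted p = 0.00241). Of the subunits of 1 enzyme, Idh3g was called higher in males, Idh3a was not called, and Idh3b was called only with total counts among the alternatives over all animals. The ratio of Idh3b to Idh3g per kilobase was 1.14 ± 0.113 (SD) in females and 1.05 ± 0.0982 (SD) in males.

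Idh2 had almost equal means in the sexes, 222.1 ± 53.3 CPM (SD) in females and 222.3 ± 46.7 CPM (SD) in males. Its log2 difference was 0.00 (95% interval -0.05 to 0.06, edgeR adjusted p = 0.954). Transcripts of slow fibres, to which Idh2 was tied (below), were lower in males for 9 of 9 markers, and their summed level had a median of 3577 CPM in females (625.5 to 9768) and 2489 CPM in males (909.7 to 7963). With scores for slow fibres, white and brown adipocytes as covariates, Idh2 was called higher in males, with a log2 difference of 0.20 (edgeR adjusted p = 2.46e-12), and Fh1 as well with 0.04 (adjusted p = 0.0391). In bulk muscle, fewer cells of a kind and less RNA per cell cannot be told apart.

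**Figure D2:**
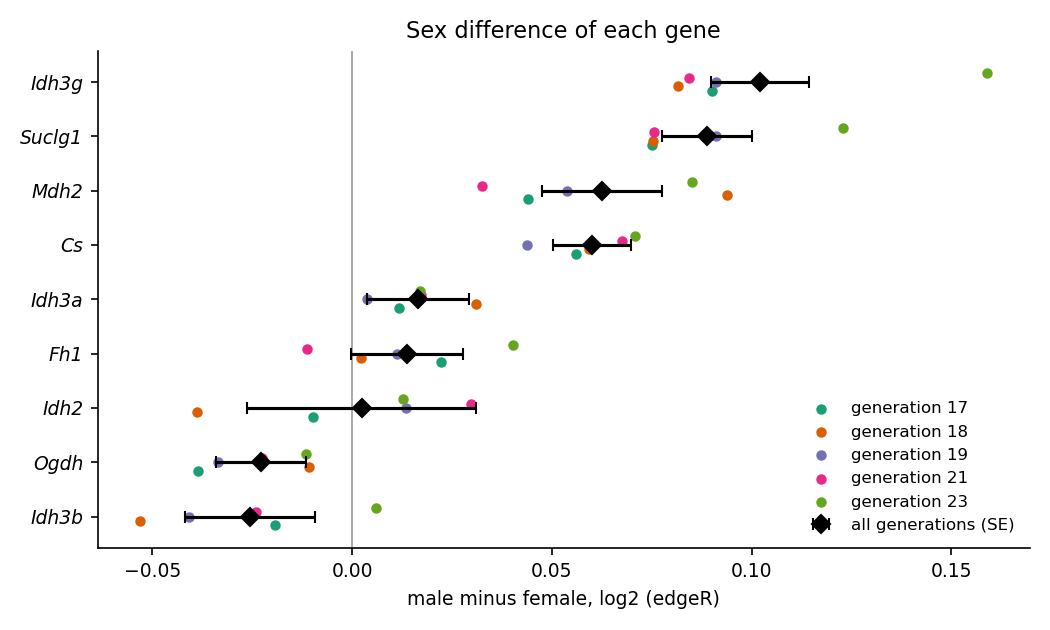
Male minus female log2 difference (horizontal axis) of each gene. Black diamonds are the fit over all animals with its SE, and coloured points the fits within each generation; Idh3g, Suclg1, Mdh2 and Cs lie right of 0 in all 5 generations, and Idh2, Fh1 and Idh3b have points on both sides.

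The remaining genes of the cycle and its entry were mostly within the same range. Of the 9 other cycle genes 5 were called higher in males, among them Dld, Dlst, Sucla2 and Sdha (log2 differences of 0.05 to 0.08), and 2 were lower, Sdhb and Suclg2. The alternative beta subunits of succinyl-CoA ligase went in opposite directions. The GTP-forming Suclg2 had 68.2 ± 9.24 CPM in females and 58.8 ± 8.23 CPM in males (log2 difference -0.22, edgeR adjusted p = 8.52e-26), while the ATP-forming Sucla2 had a log2 difference of 0.06 (adjusted p = 0.000126). Each of them pairs with Suclg1. Of 11 genes of the pyruvate dehydrogenase complex, its kinases and phosphatases, 5 were higher in males (the component genes Pdha1 and Pdhx, Pdpr, Pdk2 and Pdp1) and 2 lower (Pdk1 and Pdp2). The phosphatase Pdp1 had a log2 difference of 0.31 and Pdp2 of -0.39. Pdk4, the kinase known to respond to fasting and fat supply, was not called at 1408 CPM in females (SD 729.4) and 1370 CPM in males (SD 568.99).

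Some genes around the cycle had larger differences. Of 11 cytosolic and side enzymes 9 were lower in males, and Pcx, which makes oxaloacetate from pyruvate, fell from 178.0 ± 104 to 64.4 ± 14.5 CPM (log2 difference -1.46, edgeR adjusted p = 2.38e-88). Acly, which cleaves exported citrate, was also lower (-0.60), and the malic enzymes Me1 (0.25) and Me2 (0.20) were the 2 higher ones. White adipocyte markers were called lower in males for 7 of 9 and brown adipocyte markers for 3 of 4, and their part in the differences of Pcx and Acly was not tested. Summed white adipocyte markers ran from 520.04 over a median of 936.3 to 2371 CPM in females and from 519.99 over 908.3 to 1894 CPM in males, with Lpl and Fabp4, which other cells also express, making up much of the sum. Of 7 carriers 2 were higher, both of them pyruvate carrier genes (Mpc1, 0.16, and Mpc2, 0.09), and 4 lower, among them the citrate carrier Slc25a1 (-0.57) and the aspartate-glutamate carrier Slc25a12 (-0.21). Of 12 respiratory chain genes 9 were higher and 0 lower, led by Uqcrc1 (0.13) and Cycs (0.12). Of 11 fatty acid oxidation genes 7 were higher, led by Cpt1b (0.16) and Acadl (0.15), and 2 lower, Cpt2 (-0.11) and Etfa (-0.04). Of 11 glycolysis genes 4 were higher, led by Pgk1 and Hk2 (0.17 each), and 3 lower, led by Aldoa (-0.17) and Eno3 (-0.15). The 11 mitochondrial regulators gave 5 higher, led by Ppargc1a (0.23) and Esrrg (0.19), and 5 lower, led by Ppargc1b (-0.27) and Ppara (-0.13). The marker lists gave 5 higher and 2 lower of 8 for skeletal muscle, 6 and 4 of 12 for fast fibres, 1 and 2 of 10 for macrophages, 3 and 0 of 5 for erythroid cells, 0 and 1 of 5 for Schwann cells and 5 and 1 of 6 for endothelium.

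No member was called between generations. In edgeR 0 of 9 passed the threshold where 7.56% of all genes did, and 0 of 9 had an unadjusted p under 0.05. DESeq2 called 0 as well, with 2 at an unadjusted p under 0.05. The lowest adjusted p was that of Idh2, 0.262, with a range of 0.12 between generations on the log2 scale. Its group means ran from 208.9 CPM in generation 19 to 228.1 CPM in generation 17 in females, and from 211.0 CPM in generation 19 to 229.3 CPM in generation 23 in males. The other 8 members had group means within a ratio of 1.05 of each other in each sex. The sex difference did not depend detectably on generation either: 0 of 9 members passed the interaction test of edgeR (0.531% of all genes did), and 0 of 9 had an unadjusted p under 0.05 in edgeR or in limma. The spread between animals, tested by limma on deviations from the group median, was called for 0 of 9 members against 5.37% of all genes. Cs alone had an unadjusted p under 0.05 there, with the smaller spread in males (7.87% against 6.84% as coefficients of variation, limma adjusted p = 0.201).

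The order of the library numbers in the titles moved with the levels more than generation did. The numbers fall into 2 runs separated by a gap, the first with 96 libraries and the second with the rest, and what they stand for is not given in the labels. Between the runs 8 of 9 members were called by edgeR, all but Ogdh, where 45.4% of all genes were, and 8 of 9 again between 5 blocks of 96 numbers (47.4% of all genes). The sizes between the runs were 0.04 to 0.14 on the log2 scale. Differences of the same directions remained in the deposited scores, from which the methods say batch was removed. Mdh2 was lower in the first run, at 498.995 ± 75.7 CPM (SD, n = 96), than in the second, at 547.99 ± 52.2 CPM (SD), and Suclg1 was 167.1 ± 12.5 against 179.6 ± 15.7 CPM. Idh3a went the other way, with 475.7 ± 43.9 CPM in the first run and 459.6 ± 44.0 CPM in the second. With the run or with 5 blocks of 96 numbers as covariate, 4 members were again called between the sexes, and within the 5 blocks the log2 difference of the 4 named genes stayed above 0 in each.

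The levels of the 9 genes rose and fell together from animal to animal. Correlations were taken over all animals on the deposited variance-stabilised scores after removal of sex and generation, and tested by permuting animals within groups (2-sided, 100000 resamples), with adjustment over 36 pairs. The median Pearson r of the 36 pairs was 0.498, and 18 pairs (50%) exceeded 0.5, whereas over all pairs of genes tested the median was -0.00095 and 0.354% exceeded 0.5. Values of one animal share the scaling of its library. The r of a member with the log2 library total lay between -0.010 and 0.112, and with the total removed as well the median of the pairs was 0.497. The scores had already been scaled to the library, so removing the total cannot show whether errors of that scaling are shared. With the slow fibre and adipocyte scores removed the median of the pairs was 0.464, and within the 5 library blocks it was 0.402 to 0.559. Of the 36 pairs 35 passed the threshold, each with an r of at least 0.188, a size that 11.1% of all pairs of genes reach in either direction. Under the alternatives 28 to 35 passed, with 28 within the first library run and within generation 23. The closest pair was Idh3g and Mdh2, with r = 0.736 (95% interval 0.692 to 0.775) and Spearman's rho = 0.723, each with a permutation p of 1e-05, the smallest that 100000 resamples give, and r = 0.725 without the 2 animals farthest from the median. Within the 5 library blocks it lay between 0.604 and 0.816.

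Cs was the best connected member. Its r was 0.676 with Mdh2, 0.673 with Suclg1 and 0.630 with Fh1, and the median with the other 8 members was 0.617. Mdh2 (0.589), Idh3g (0.584), Suclg1 (0.534), Ogdh (0.510) and Fh1 (0.502) followed. Idh3b had a median of 0.453, and Idh2 (0.309) and Idh3a (0.245) stood apart from the rest. The first principal component of the 9 genes took 54.2% of their variance, with weights of one sign, from 0.214 for Idh2 and 0.215 for Idh3a to 0.389 for Cs.

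**Figure D3:**
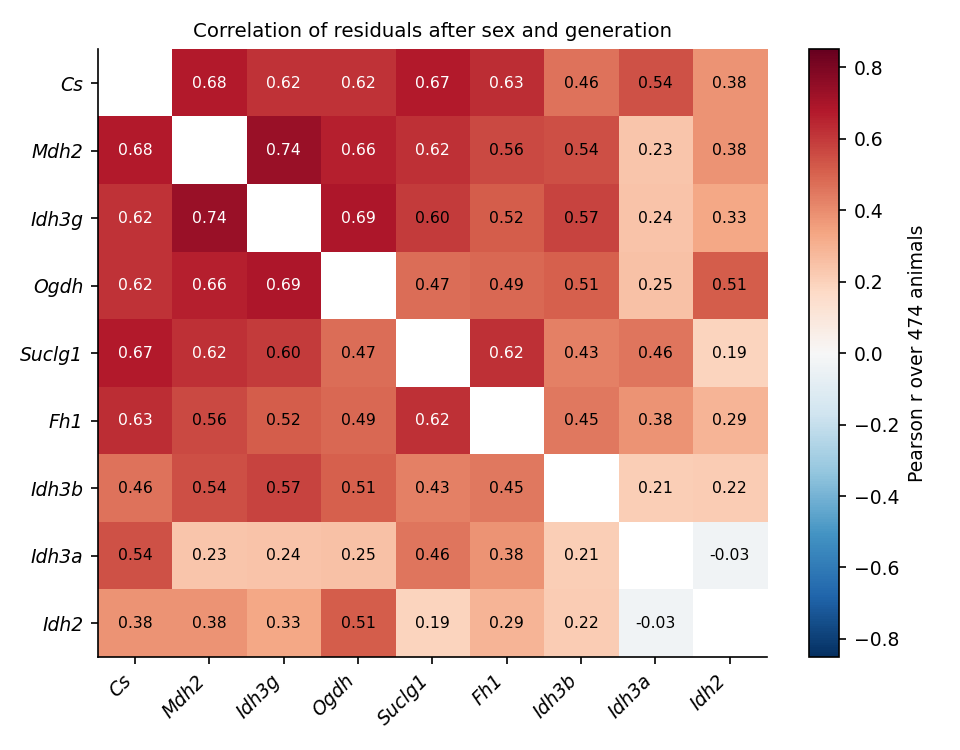
Pearson r over all animals between each pair of the 9 genes, after removal of sex and generation, as numbers on a colour scale from blue (negative) to red (positive). Cs, Mdh2, Idh3g, Ogdh, Suclg1 and Fh1 form a block of values from 0.47 to 0.74 (from 0.12 to 0.75 within the first library run), and the lowest row and column belong to Idh3a and Idh2, whose own pair is at -0.029.

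The 3 subunits of the NAD-dependent isocitrate dehydrogenase were not equally tied. Idh3b and Idh3g had r = 0.573 (95% interval 0.509 to 0.630; rho = 0.599; permutation p = 1e-05 for each). Idh3a, the catalytic subunit, had r = 0.210 (0.122 to 0.294; rho = 0.230) with Idh3b and r = 0.239 (0.153 to 0.322; rho = 0.270) with Idh3g, with permutation p of 2e-05 and 1e-05. The intervals of these 2 values lie below that of Idh3b with Idh3g, but the values within library blocks come closer. Idh3b with Idh3g ranged from 0.509 to 0.703 over the 5 blocks and Idh3a with Idh3b from 0.051 to 0.432. Idh3a was closer to Cs, with r = 0.543 (0.476 to 0.604; rho = 0.531; permutation p = 1e-05). The library order bears on this: in the first run Idh3a had r = -0.142 with Idh3g and -0.158 with Mdh2, whereas within the other 4 blocks these were 0.237 to 0.553 and 0.313 to 0.641. With Cs it was 0.439 to 0.684 within the 5 blocks. The per-kilobase ratio of Idh3a to Idh3b had a mean of 1.11 ± 0.168 (SD over all animals) and ranged from 0.766 to 1.93.

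Idh3a was the member most strongly tied to the RNA of the mitochondrial genome. The summed CPM of 15 mitochondrial-genome genes, on the log2 scale after removal of sex and generation, had r = 0.584 with Idh3a (95% interval 0.522 to 0.641; rho = 0.542; permutation p = 1e-05, adjusted over 9 relations 4.5e-05). It was 0.464 to 0.623 within the 5 blocks and 0.572 without the 2 animals farthest from the median. The other members had r between -0.178 for Mdh2 and 0.195 for Cs, whose interval ends at 0.280. Cs (permutation, adjusted p = 4.5e-05), Fh1 (r = 0.154, adjusted p = 0.00178) and Suclg1 (r = 0.110, adjusted p = 0.0209) were also positively related. Mdh2 (-0.178, adjusted p = 0.00033), Idh3g (-0.137, 0.00544) and Idh3b (-0.124, 0.0116) passed as negative by Pearson's r in the same permutation test, but not by rank (adjusted p = 0.505, 0.505 and 0.0869). The relation was looked at after the values of Idh3a had been seen. The share of all genes related to mitochondrial RNA was not computed, so weak values such as 0.110 stand here without a background. Mdh2 and Idh3g reached -0.461 and -0.459 with mitochondrial RNA in the first run, and 0.233 and 0.134 at most in other blocks; the part of library order in this was not tested.

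**Figure D4:**
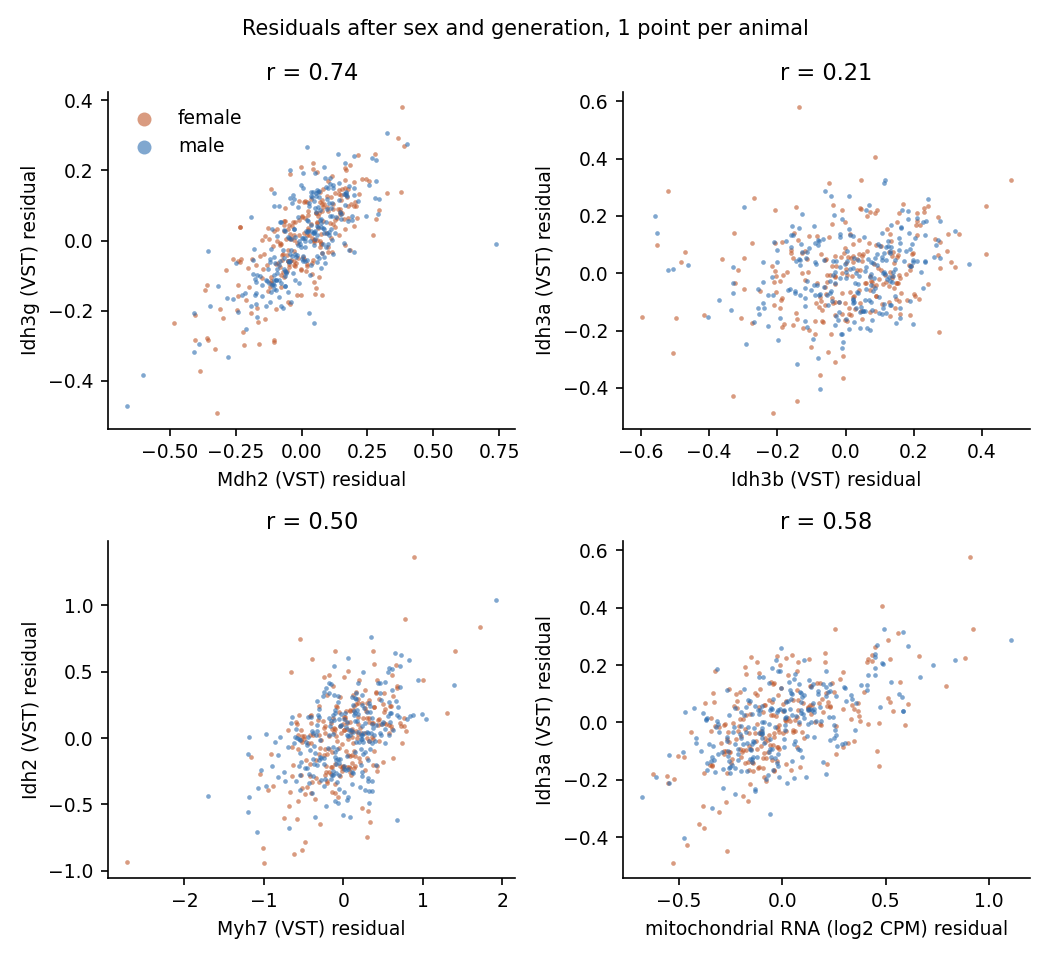
Residuals after sex and generation, 1 point per animal, females in orange and males in blue; axes are VST scores except for mitochondrial RNA, which is log2 CPM. The upper panels show Idh3g against Mdh2 (r = 0.74) and Idh3a against Idh3b (r = 0.21), and the lower ones Idh2 against Myh7 (r = 0.50) and Idh3a against mitochondrial RNA (r = 0.58).

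Idh2 was the member most strongly tied to the slow fibre genes. Myh7, the slow myosin heavy chain, had r = 0.496 with Idh2 (95% interval 0.424 to 0.561, rho = 0.445, permutation p = 1e-05 for each, the smallest possible). For the other members r lay between -0.098 and 0.172, the last for Ogdh, which also passed (permutation, adjusted p = 0.000535). An r of at least 0.109 with Myh7 was found in 5.73% of all genes. Without the 2 animals farthest from the median the r of Idh2 with Myh7 was 0.464, and within the 5 library blocks it was 0.224 to 0.646. The lowest was that of the first block, which did not pass (adjusted p = 0.126). Myh2, the myosin of fast oxidative fibres, was positively related to 9 of 9 members (0.135 to 0.489; r of at least 0.109 in 11.3% of all genes), with Idh2 at the top and Ogdh next (0.409). Myh4, the myosin of fast glycolytic fibres, had r = -0.242 with Idh2, the only negative value for Myh4 past the threshold, and that value was 0.034 in the first library run. Another 2 of 9 members passed as positive with Myh4, with r no higher than 0.111. Of all genes, 23.2% had an r of -0.109 or lower with Myh4 and 17.6% one of at least 0.109. Myh1 was positive for 9 of 9 members (0.146 to 0.364; 9.18% of all genes). The pair of Idh2 and Idh3a had r = -0.029 (95% interval -0.119 to 0.061; rho = -0.033; permutation p = 0.535 and 0.471), the only one of the 36 that did not pass. Idh2 was closest to Ogdh among the members (r = 0.512; 0.442 to 0.576). Its most similar gene overall was Ldhb, the heart-type lactate dehydrogenase subunit, at r = 0.746, for which the other members had 0.006 to 0.455.

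Among the regulators, Esrra, which encodes the oestrogen-related receptor alpha, a factor known to drive genes of oxidative metabolism, was positively related to 8 of 9 members, where 21.8% of all genes had an r of at least 0.109. The value was highest for Mdh2, with r = 0.636 (95% interval 0.579 to 0.687; rho = 0.543; permutation p = 1e-05 for each) and 0.43 to 0.75 within the 5 blocks. Idh3g followed at 0.466. Idh3a had r = 0.048 (permutation, adjusted p = 0.391) and rho = 0.129 (adjusted p = 0.00932), and its value depended on the library order. It was -0.288 in the first run and 0.248 to 0.417 in the other 4 blocks, and with the run removed it was 0.146 and passed the threshold (adjusted p = 0.0034). Ppargc1a, the coactivator best known for mitochondrial biogenesis, passed for 1 of 9 members, Idh3a (r = 0.163, permutation, adjusted p = 0.0012), where 13.5% of all genes had an r of at least 0.109. For the other 8 members r lay between -0.013 and 0.093. Ppargc1b was positive for 8 of 9 members with values up to 0.233 for Mdh2 (17.1% of all genes), but 7 of these 8 relations were negative within block 4. Pdk4 was positive for 3 of 9 (16.2% of all genes), with r no higher than 0.172. Adipoq, a marker of adipocytes in the tissue, was negative for 9 of 9 members (-0.291 for Cs to -0.159 for Fh1), where 17.3% of all genes had an r of -0.109 or lower, and Ucp1 for 5 of 9 (13.3% of all genes), lowest for Idh3a at -0.237. The mean score of the 4 brown adipocyte markers had a positive r with 8 of 9 members (0.047 to 0.188, not tested) and -0.249 with Idh3a. Of its genes Cox8b had an r of 0.494 with the mean of the members and was the only positive one. Ucp1 was at -0.137, Dio2 at -0.108 and Cidea at -0.078. In all, 57 of 90 relations passed after adjustment over the 90. Over the same 10 genes, 31% of the relations with all genes tested lay at least 0.109 from 0, the weakest r of a member that passed.

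**Figure D5:**
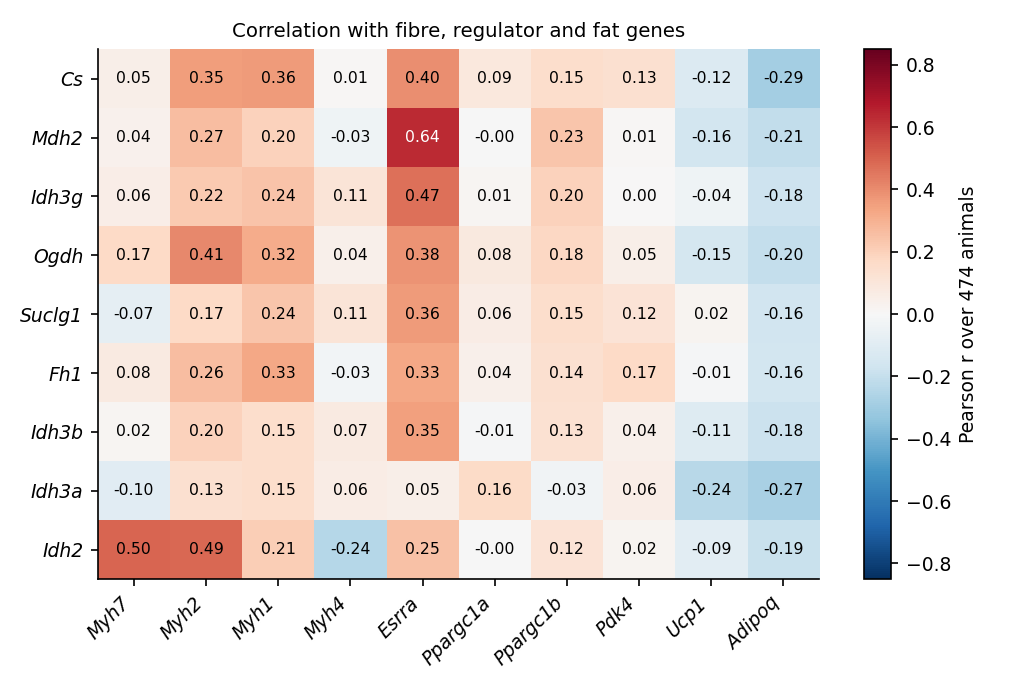
Pearson r over all animals of the 9 genes (rows) with 10 fibre, regulator and fat genes (columns), after removal of sex and generation, on a colour scale from blue (negative) to red (positive). Mdh2 with Esrra (0.64) and Idh2 with Myh7 and Myh2 (0.50 and 0.49) are the highest values, and the Adipoq column is negative throughout.

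The correlations did not differ detectably between the sexes. The value was lower in males in 34 of 36 pairs, with a median of 0.556 in females and 0.450 in males, but the pairs share genes and animals. By permutation of the sex label within generation, 0 of 36 pairs passed (lowest adjusted p = 0.415), and 2 had an unadjusted p under 0.05. The largest difference was that of Idh2 and Mdh2, with r = 0.475 in females and 0.273 in males (permutation p = 0.019).

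Genes outside the list that were most like the 9 came from the respiratory chain. Likeness was measured as r over all animals with the mean of the standardised members, among 15173 protein-coding genes, and is a description with no test. The 5 highest were Atp5b (0.865), Ndufa9 (0.853), Ndufa10 (0.813), Uqcrc1 (0.798) and Ndufv1 (0.791), subunits of the ATP synthase, of complex I and of complex III. The 5 lowest were Serp1 (-0.514), Tmem123 (-0.479), Dock11 (-0.473), Mob1a (-0.466) and Stk4 (-0.459). Among the other cycle genes Dlst had 0.762, Sdhb 0.727 and Sdhc 0.725, and the lowest were Sucla2 (0.360), Dld (0.299) and Suclg2 (0.189). Pdhb, a component of the pyruvate dehydrogenase complex, had 0.623 and Pdk3 -0.277. Cycs, which encodes cytochrome c and was listed with the respiratory chain, was at -0.00025. Its spread was wide, with 104.7 ± 41.0 CPM (SD) in females and 113.7 ± 43.2 CPM (SD) in males. Near copies of Cycs were not looked for. The median r of members with a list was 0.544 for the respiratory chain, 0.440 for the other cycle genes, 0.406 for fatty acid oxidation and 0.236 for glycolysis.

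Single members had different closest genes. Ndufa9 was the most similar gene of Cs (r = 0.763), Suclg1 (0.726) and Fh1 (0.677), Uqcrc1 that of Mdh2 (0.834) and Idh3g (0.739), Atp5b that of Ogdh (0.723), Idh3g that of Idh3b (0.573) and Dlat that of Idh3a (0.686). Dlat encodes the acetyltransferase of the pyruvate dehydrogenase complex and starts within 4 Mb of Idh3a on chromosome 9, so it was also the most strongly related gene of that region. Atp5b, which starts upstream of Cs on chromosome 10 (start minus that of Cs, -254461 bases), was likewise the strongest neighbour of Cs (r = 0.734). In Diversity Outbred mice neighbouring genes are inherited in shared founder segments, and genotypes were not analysed here. Cenpb was the strongest neighbour of Idh3b (0.573), Gm45203 that of Idh2 (0.574; its span overlaps that of Idh2), Tbrg4 that of Ogdh (0.588), Immt that of Suclg1 (0.649), Abhd11 that of Mdh2 (0.603) and Pex19 that of Fh1 (0.372).

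A few animals stood at the ends of several genes at once. The female DO191 of generation 18 had the lowest level of Cs (524.6 CPM), Idh3a (319.1 CPM), Idh3g (143.3 CPM) and Ogdh (742.9 CPM) of all animals, and its Suclg1 (137.7 CPM), Fh1 (129.9 CPM), Mdh2 (415.2 CPM), Idh2 (151.3 CPM) and Idh3b (243.01 CPM) were below the means of all animals. Its library also had a low total (53.4 M counts) and low mitochondrial RNA (71496 CPM, among the lowest 10 libraries). The female DO162 of generation 18 was highest for Idh3b (402.97 CPM), Idh3g (268.8 CPM) and Suclg1 (237.8 CPM). The male DO195 of generation 18 was highest for Mdh2 (893.4 CPM) and Ogdh (1407 CPM) with Idh3g near the middle at 214.5 CPM. The female DO349 of generation 21 had the highest Idh2 (562.6 CPM), rank 2 for Ogdh and for Ldhb, and a low Idh3a (398.8 CPM). These animals were singled out after their values had been seen.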

How the data were processed

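RNA-seq of gastrocnemius muscle (poly(A)-selected libraries) was analysed for all mice, grouped by the sex and number in the titles. The deposited expected counts per gene had been estimated by the authors with EMASE through GBRS, from both mates treated as single reads and aligned to a transcriptome of the founder strains (GRCm38 in the submitters' processing notes), with low transcripts removed. Versions and strand settings are not given in the sources used here. The deposited variance-stabilised scores were made by the authors with DESeq2, and the methods state that batch was removed as a random effect. Collection wave, a covariate in the study, is not in the labels and was not fitted.

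Expected counts were rounded, scaled by TMM and filtered with filterByExpr (minimum count 10), which left 18823 of 20612 genes. Sex, generation, their interaction and library run were tested with edgeR 4.0.16 (quasi-likelihood F-test, R 4.3.3), and spread with limma 3.58.1, each with Benjamini-Hochberg adjustment over 18823 genes and a threshold of 0.05. DESeq2 1.42.0 was an alternative. Correlations used the scores after removal of sex and generation, with 100000 permutations within groups (10000 for alternatives). Library totals were 35.9 to 166 M counts. The lowest count of a member gives a counting error of 1.40% if counts are independent, and this covers counting only. Because both mates were treated as single reads, the error may be larger.

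The members, gene lists and tests were chosen with earlier results of these data known. All members are named; of other lists, the genes of the cycle and of pyruvate dehydrogenase as needed, and at most 4 of any other list by the size of the difference. For likeness, the 5 highest and 5 lowest genes were named, and for each member the most similar gene and the strongest within 4 Mb. Some genes these rules select are not reported here. The 5 blocks of 96 library numbers and the relation with mitochondrial RNA were added after seeing the data. Alternatives covered scaling, filters, tools, covariates, residuals and subsets of libraries. The tests were tested on simulated data. Animals are the replicates, and relatedness among them was not modelled.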

Additional observations from a re-analysis of the deposited data

How the results depend on the processing

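Of 9 members, 4 were called between the sexes. The count was 1 within generation 18, 2 within generation 19 and 1 within block 2. Those fits hold fewer animals, but fits of like size within generations 17 and 23 gave 3 and 4. The 1 in block 2 was Ogdh, lower in males (-0.08, adjusted p = 0.0196), and none of Idh3g, Suclg1, Cs and Mdh2 passed there (lowest adjusted p = 0.0515). The other alternatives gave 3 to 6. Of the 90 relations with fibre, regulator and fat genes 57 passed, and within smaller sets 10 did in the first library run (96 animals), 32 in block 2, 31 in block 3, 15 in block 4 and 27 in block 5.

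No sex difference that was called changed direction. Among those not called, Idh3a was -0.0137 with total count scaling, -0.0144 with marker scores as covariates, -0.0172 in block 2 and -0.00891 in block 5. Idh3b was 0.00597 in generation 23, 0.0127 in the first run and 0.0137 in block 5. Idh2 was -0.0271 with total count scaling, -0.00979 in generation 17, -0.0388 in generation 18, -0.000849 in the second run, -0.134 in block 2 and -0.0232 in block 4. Ogdh was 0.00431 in the first run and 0.0142 in block 5. Fh1 was -0.0175 with total count scaling, -0.0113 in generation 21 and -0.0706 in block 2. The sex difference in spread of Idh3g was 0.00137 on log2 CPM.

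For the correlations, Idh3a with Idh3g was -0.142 and Idh3a with Mdh2 -0.158 in the first run. Idh3a with Idh2 was 0.0941 in generation 17, 0.0827 in generation 18, 0.00128 in the second run and 0.175 in block 2, and Idh2 with Suclg1 -0.0435 in block 3. Idh2 with Myh4 was 0.0338 and Idh3a with Esrra -0.288 in the first run, and Mdh2 with Ppargc1b -0.0694 in block 4. Of the 57 relations that passed, 19 had the other sign in at least 1 block, among them 7 of 8 with Ppargc1b in block 4. The cause was not tested.

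No paired analysis was possible because the labels give no replicate numbers shared between groups. Wave, relatedness and genotype were not modelled, and reads of overlapping genes cannot be assigned without the strand setting.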
